A study of Mus musculus with 24 samples.

Results

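A set of 10 genes of matrix turnover was followed across mouse lungs given bleomycin or saline: the matrix metalloproteases Mmp2, Mmp3, Mmp8, Mmp9, Mmp12 and Mmp14, the membrane-bound protease Adam8, and the tissue inhibitors of metalloproteases Timp1, Timp2 and Timp3. The members were all probe sets that the array annotation pairs with 1 of these 10 genes, which gave 16 probe sets of the 12422 on the array that are not controls. Of the 16, 10 probe sets for 9 genes were bright enough to be tested, within 8710 tested in all. The arrays measured total RNA of whole lung from C57BL/6J and BALB/c mice, 2 inbred strains that the study compared to learn why sensitivity to pulmonary fibrosis differs. Mice received intratracheal bleomycin at 1.5 U per kg, a DNA-damaging drug used to produce lung fibrosis, or saline, and lungs were taken at 24 h, 72 h or 14 d. Each of the 12 combinations of strain, treatment and time had 2 arrays, a and b. The labels give no age, sex or other allele, nor whether the pair came from different mice, so each p-value measures only the spread between these arrays, which may be technical. In whole lung RNA, fewer cells of a type and less RNA per cell cannot be told apart.

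Matrix metalloproteases are zinc-dependent enzymes that cut collagens, elastin, proteoglycans and cell surface proteins, and most are made as inactive precursors. Timp proteins bind their active sites and block them, so the balance of enzyme and inhibitor governs how fast matrix is removed. In the lung, Mmp12 is the elastase of macrophages, Mmp8 is a collagenase stored by neutrophils, and Mmp3 is a stromelysin made by stromal cells in injury. Timp1 is the family's inducible inhibitor and is known for its rise in injured and fibrotic lung.

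Mmp3, Mmp8 and Mmp12 lie near each other on chromosome 9, while Timp1 lies on chromosome X. Their upstream sequences are shown because these are the genes set against Timp1 below, and because AP-1, a factor activated by injury signals, is the textbook regulator of Mmp promoters. Each sequence is the 200 bases before an annotated start in RefSeq (GRCm38.p6), 5′ to 3′ on the gene's strand, which is the plus strand for all of them. Capitals mark the AP-1 motif, searched as TGANTCA, which reads the same on both strands. In order, the windows are chr9:7445622-7445821, chr9:7347174-7347373, chr9:7344197-7344396, chr9:7558229-7558428 and chrX:20869966-20870165.
Mmp3: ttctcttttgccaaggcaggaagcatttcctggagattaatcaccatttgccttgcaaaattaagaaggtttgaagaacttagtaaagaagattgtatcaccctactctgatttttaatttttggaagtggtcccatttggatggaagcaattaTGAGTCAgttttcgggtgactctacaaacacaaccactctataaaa
Mmp12, downstream start: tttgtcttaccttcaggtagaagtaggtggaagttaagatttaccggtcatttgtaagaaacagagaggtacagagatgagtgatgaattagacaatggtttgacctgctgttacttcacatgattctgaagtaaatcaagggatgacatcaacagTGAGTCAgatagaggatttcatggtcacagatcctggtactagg
Mmp12, upstream start: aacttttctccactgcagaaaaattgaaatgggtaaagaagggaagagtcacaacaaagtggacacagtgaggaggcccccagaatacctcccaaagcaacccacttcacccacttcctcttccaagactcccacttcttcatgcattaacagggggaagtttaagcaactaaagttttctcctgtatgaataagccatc
Mmp8: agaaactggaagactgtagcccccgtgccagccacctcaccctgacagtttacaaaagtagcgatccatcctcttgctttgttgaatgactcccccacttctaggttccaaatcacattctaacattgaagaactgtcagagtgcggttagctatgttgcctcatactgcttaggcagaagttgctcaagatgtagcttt
Timp1: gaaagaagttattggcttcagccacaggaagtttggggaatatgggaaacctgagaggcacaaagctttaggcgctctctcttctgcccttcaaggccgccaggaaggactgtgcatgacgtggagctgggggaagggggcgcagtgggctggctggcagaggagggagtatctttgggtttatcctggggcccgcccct

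The motif stood 46 bases before the Mmp3 start and 44 bases before the downstream of the Mmp12 starts, and these letters were not in the windows of Mmp8, Timp1, Timp2, Timp3, Mmp14 and Adam8. Of 32851 annotated mouse starts, 1800 (5.48%) held it in a window of the same length. The ETS-type motif AGGAAG, read on both strands, was in the windows of Timp1 (175 and 99 bases before the start), Mmp3 (183) and the upstream start of Mmp12 (87), against 24.7% of all starts. Windows of Mmp2 and Mmp9 were not used here. A match describes letters in a window and is not a measured binding site.

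Median intensity ranged from 313 to 408 over the 24 arrays, and a and b of the same group had r of 0.926 to 0.979 over the tested probe sets (log2 scale). The number of arrays limits the precision. The saline arrays of 72 h stood apart. H2-Ea, a histocompatibility gene that is silent in C57BL/6J, read 3622 to 4821 on the pair that the labels call C57BL/6J saline 72 h, against 25.6 to 166 on the other 10 C57BL/6J arrays. On those labelled BALB/c saline 72 h it read 48.3 to 89.5, against 2917 to 6068 on the other 10 BALB/c arrays. The titles of the BALB/c pair say saline while the descriptions say bleomycin, and the titles were followed. Results at 72 h are therefore given as labelled, without these 4 arrays (with the strain's remaining saline arrays, of 24 h and 14 d, as control), and with the strain labels of the 4 exchanged. The mean of both strains' effects does not change with that exchange. The titles of the C57BL/6J saline 24 h pair carry another suffix than those of the remaining arrays. That pair reached a highest intensity of 43230 and 78640, against 6888 to 21460 on the other arrays. The effect at 24 h in that strain is also given against saline 14 d where it changed a call. The title of the a array of C57BL/6J bleomycin 14 d also carries a suffix of its own, and values without that array are given below. Descriptions of the BALB/c saline 24 h pair name either treatment, and the titles say saline. The summed intensity of the lung epithelium markers was uneven, from 3630 to 202500 over the arrays, and the surfactant gene Sftpc read from 5.79 to 78640.

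Counts of called probe sets set the members beside all probe sets. Called means an adjusted p below 0.05 in a linear model across all groups (limma, Benjamini-Hochberg over the 8710 tested). In C57BL/6J at 14 d, 6 of the 10 member probe sets rose after bleomycin and none fell. Of all probe sets, 7.43% were called (271 rose and 376 fell). The 6 include both Mmp12 probe sets. They also include Mmp8, which was bright enough to be tested only through bleomycin arrays, as described below. The median log2 change was 1.51 over the 10 and -0.07 over all. In BALB/c at 14 d, 4 of 10 rose, both Mmp12 probe sets among them, and none fell. Of all probe sets, 13.3% were called (688 rose and 470 fell), and the medians were 0.58 and 0.04. Without the a array of C57BL/6J bleomycin 14 d, or without the a array of its saline group, the C57BL/6J count was 2, and without the b array of that saline group it was 3. Without the b array of BALB/c bleomycin 14 d, or without either BALB/c saline 14 d array, the BALB/c count was 1.

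At 24 h no member was called in C57BL/6J (2.23% of all called) or in BALB/c (0.218%), and 1 member in each strain had an unadjusted p under 0.05. At 72 h as labelled, 2 of 10 rose in C57BL/6J (6.61% of all) and 0 of 10 changed in BALB/c (1.32%), where 1 had an unadjusted p under 0.05. Without the 4 saline arrays in doubt, 2 rose (Mmp3 and Mmp8) and 1 fell in C57BL/6J (5.99% of all), and 1 fell in BALB/c (6.04%). In the mean of both strains at 72 h, 2 rose (3.21% of all). As labelled, the C57BL/6J count at 72 h was 1 without any of the 4 C57BL/6J arrays of 72 h and reached 5 without an array of C57BL/6J bleomycin 14 d, BALB/c bleomycin 14 d or BALB/c saline 24 h. The count for the mean of both strains ranged from 0 to 4, with 0 when an array of either C57BL/6J pair, the BALB/c bleomycin b array or the BALB/c saline a array of 72 h was left out, and 4 without either C57BL/6J bleomycin 14 d array. The strain difference in the bleomycin effect, tested as an interaction, was called for 0 of 10 at 24 h (0.023% of all), 1 of 10 at 72 h as labelled (3.08%), 0 of 10 at 72 h without the 4 arrays (0.907%) and 0 of 10 at 14 d (7.43%). Unadjusted p was under 0.05 for 1, 1, 1 and 5 of them, in that order.

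**Figure D1:**
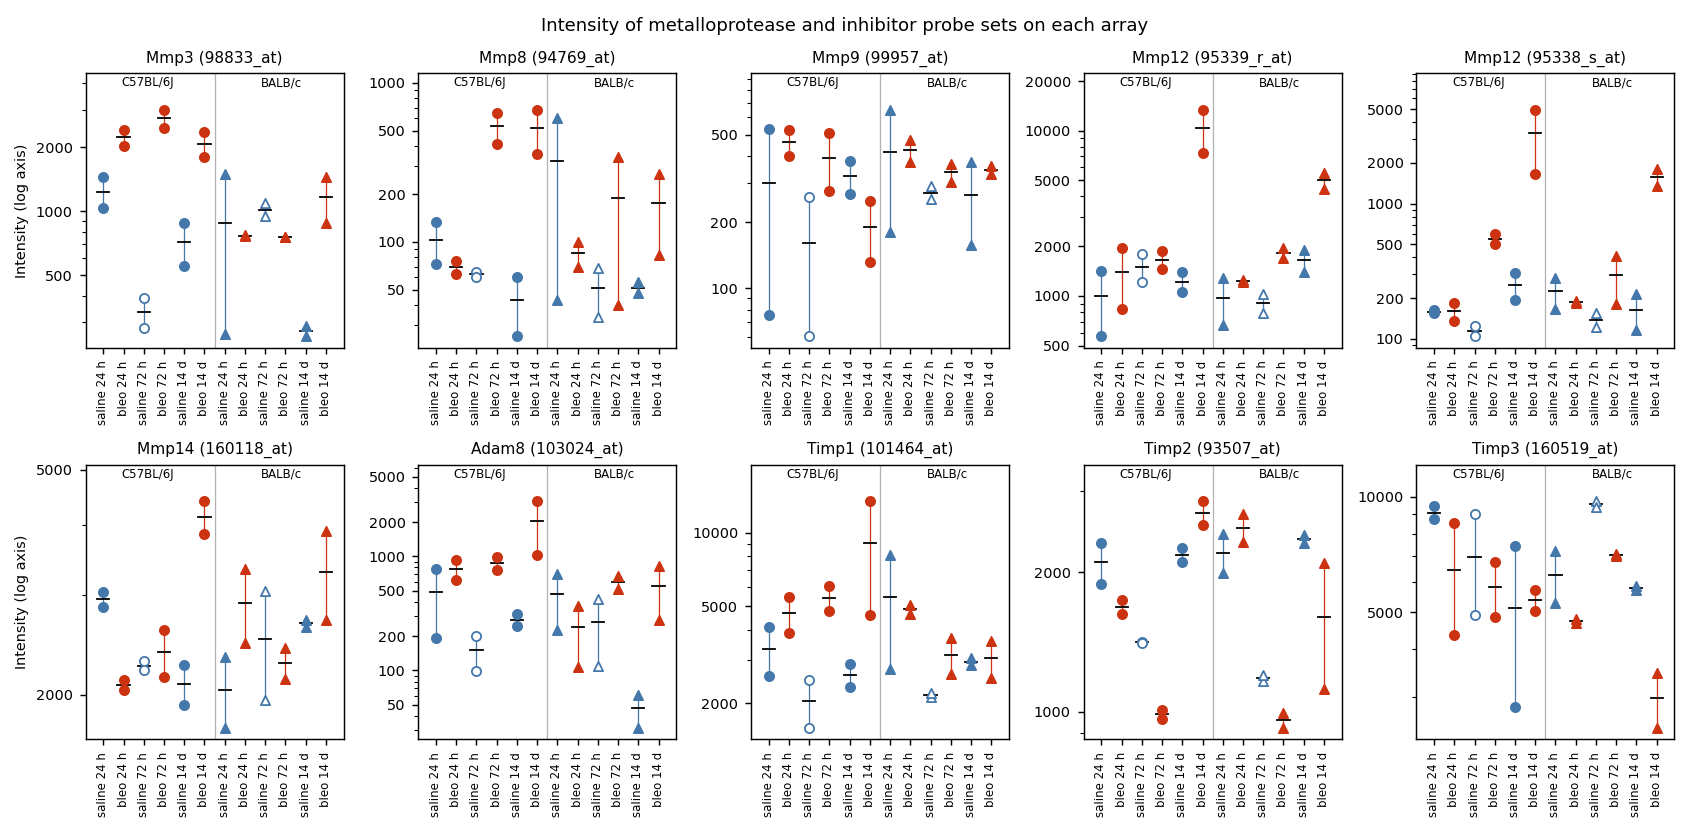
Deposited intensity (log axis) of the 10 tested probe sets on each of the 24 arrays, by group. Circles are C57BL/6J, triangles BALB/c, blue saline, red bleomycin, open symbols the saline 72 h arrays, and black bars the mean of 2 arrays. Both Mmp12 probe sets are highest on the bleomycin 14 d arrays of both strains. Timp1 reads 13520 and 4600 on the C57BL/6J bleomycin 14 d arrays. The lower value is within the range of that strain's earlier bleomycin arrays (3891 to 6046). On the BALB/c bleomycin 14 d arrays Timp1 is at saline levels (2523 and 3608).

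Mmp12, macrophage elastase, showed the largest rise at 14 d among the members of C57BL/6J, and both of its probe sets were called in both strains. With the probe set whose name ends in _r_at, C57BL/6J lungs read 13440 and 7365 at 14 d after bleomycin and 1387 and 1057 after saline. BALB/c lungs read 5586 and 4423 after bleomycin and 1888 and 1399 after saline. The bleomycin arrays lay above all saline arrays in each strain. The log2 change was 2.95 ± 0.40 (SE; limma adjusted p = 0.0005373) in C57BL/6J and 1.56 ± 0.40 (adjusted p = 0.0174) in BALB/c. The other probe set, ending in _s_at, read 4957 and 1668 against 306 and 193 in C57BL/6J, and 1341 and 1816 against 116 and 214 in BALB/c. Its change was 3.15 ± 0.38 (adjusted p = 0.0001586) and 2.72 ± 0.38 (adjusted p = 0.0005516). The probe sets differed on the strains: the difference between the strains' effects was 1.39 ± 0.56 (adjusted p = 0.1399) with the _r_at probe set and 0.43 ± 0.53 (adjusted p = 0.6594) with the _s_at probe set, so neither passed the test. The BALB/c call of the _r_at probe set was lost without either array of its bleomycin or saline 14 d pair (adjusted p from 0.06108 to 0.1318), and the others held without any 1 array.

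The rise of Mmp12 came late. At 24 h after bleomycin, the _r_at probe set read 1962 and 832 in C57BL/6J and 1254 and 1216 in BALB/c, and all but the first lay within the range of the saline arrays (569 to 1888). From 24 h to 14 d among bleomycin arrays alone it rose by 2.87 ± 0.40 in C57BL/6J (adjusted p = 0.0003239) and by 1.93 ± 0.40 in BALB/c (adjusted p = 0.01003). In that comparison 4 of 10 member probe sets rose in C57BL/6J, where 8.67% of all probe sets were called (2 rose without the a array of bleomycin 14 d or either of 24 h), and 2 rose and 1 fell in BALB/c, where 7.66% were called (1 without the b array of bleomycin 14 d or of 24 h). At 72 h, the _s_at probe set read 594 and 503 in C57BL/6J after bleomycin, above all 6 saline arrays of that strain (104 to 306), and 180 and 411 in BALB/c. Its change at 72 h in the mean of both strains was 1.16 ± 0.27 (adjusted p = 0.02068), while the _r_at probe set gave 0.55 ± 0.28 (adjusted p = 0.3346). That call was lost without any 1 of 7 of the 8 arrays of 72 h, at adjusted p from 0.05144 to 0.1336.

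Some macrophage markers were also called at 14 d. Of 15 macrophage markers, 13 were tested, and at 14 d 5 rose and none fell in C57BL/6J: C1qb (2.94), C1qa (1.95), Msr1 (1.76), Cd68 (1.54) and Fcgr1 (0.97). In BALB/c 5 rose and 1, Lyz2, fell by 0.73, with C1qa at 1.55, Itgax at 0.84 and C1qb at 1.37 among those that rose. Over all 6464 genes, 202 rose and 298 fell in C57BL/6J, and 557 rose and 297 fell in BALB/c. The summed intensity of the macrophage markers was 40900 to 65450 on the C57BL/6J bleomycin 14 d arrays and 27040 to 29840 on their saline controls. In BALB/c it was 26840 to 30190 and 21600 to 22470. Saline arrays of other times came near or reached these sums. C57BL/6J saline 24 h stood at 32780 to 38980, with the Mmp12 _r_at probe set at 569 and 1417. BALB/c saline 72 h as labelled stood at 26680 to 30740, with that probe set at 1021 and 783. The part of these markers in the Mmp12 result was not tested.

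Mmp3, stromelysin 1, was high in C57BL/6J after bleomycin at each time. The C57BL/6J bleomycin arrays read 2419 and 2028 at 24 h, 3007 and 2465 at 72 h and 2366 and 1794 at 14 d. The saline arrays of that strain as labelled read 1031 and 1441, 389 and 283, and 553 and 884. Every C57BL/6J bleomycin array lay above every C57BL/6J saline array. In BALB/c the bleomycin arrays read 763 and 768 at 24 h, 755 and 759 at 72 h and 883 and 1453 at 14 d. The BALB/c saline arrays read 265 and 1496, 944 and 1087, and 257 and 287. The 6 C57BL/6J bleomycin arrays also lay above the 6 of BALB/c.

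The bleomycin effect on Mmp3 passed the test in BALB/c at 14 d (1.76 ± 0.43, adjusted p = 0.01423) and stood at 1.44 ± 0.43 in C57BL/6J (adjusted p = 0.0504), with a strain difference of -0.31 ± 0.61 (adjusted p = 0.791). At 72 h it was 2.73 ± 0.43 in C57BL/6J as labelled (adjusted p = 0.0007639), 1.46 ± 0.39 without the 4 saline arrays in doubt (adjusted p = 0.03988) and 1.35 ± 0.43 with their labels exchanged (adjusted p = 0.1144). The mean of both strains was 1.17 ± 0.30 (adjusted p = 0.04447), a call lost without any 1 of the 8 arrays of 72 h (adjusted p from 0.0623 to 0.1676). The BALB/c call at 14 d was lost without the b array of bleomycin 14 d (1.42, adjusted p = 0.1627) or without the a (1.70, adjusted p = 0.09421) or b (1.81, adjusted p = 0.07298) array of saline 14 d. The strain difference at 72 h was 3.11 ± 0.61 as labelled (adjusted p = 0.006102), 0.77 ± 0.56 without those arrays (adjusted p = 0.5478) and 0.35 ± 0.61 with labels exchanged (adjusted p = 0.9746). The large difference as labelled thus needs the arrays whose strain gene goes against their labels: the pair labelled C57BL/6J saline 72 h read 283 and 389, near the BALB/c saline levels of 14 d.

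Set directly against each other after bleomycin, C57BL/6J exceeded BALB/c in Mmp3 by 1.43 ± 0.43 at 24 h (adjusted p = 0.1327), 1.73 ± 0.43 at 72 h (adjusted p = 0.05277) and 0.81 ± 0.43 at 14 d (adjusted p = 0.2112). No member was called in this comparison at 24 h (1.87% of all called; 4 members had an unadjusted p under 0.05) or 72 h (1.64%; 2 members). After saline, over 24 h and 14 d, the Mmp3 difference was 0.96 ± 0.30 (adjusted p = 0.05032), and no member was called where 11.1% of all probe sets were, with 1 member at an unadjusted p under 0.05. At 24 h the bleomycin effect in C57BL/6J was 0.81 ± 0.43 (adjusted p = 0.4113). With the saline arrays of 14 d as the control it was 1.54 ± 0.43 (adjusted p = 0.04729), since the C57BL/6J saline 24 h arrays read higher than those of 14 d.

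**Figure D2:**
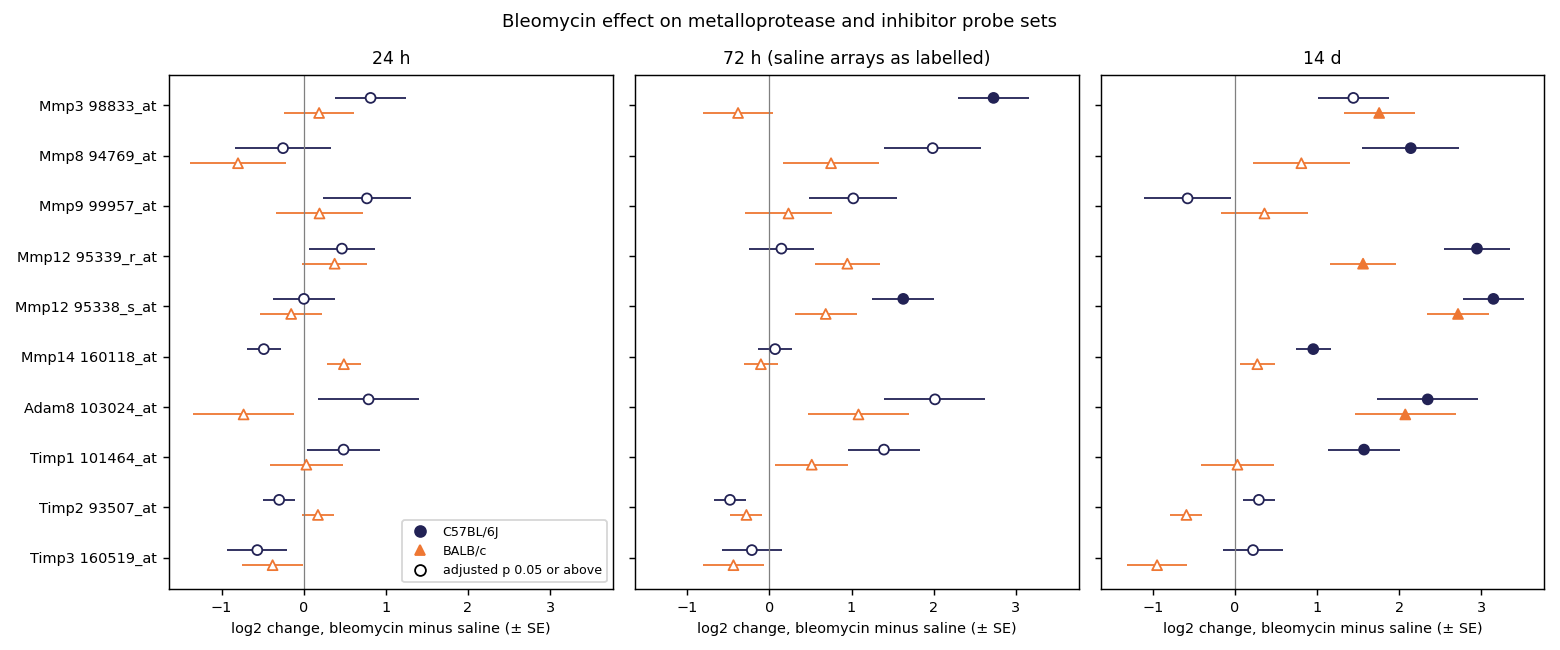
Log2 change after bleomycin (bleomycin minus saline, horizontal axis, with the standard error from the linear model) of the 10 tested probe sets at 24 h, 72 h and 14 d, in C57BL/6J (dark circles) and BALB/c (orange triangles). Filled symbols have an adjusted p under 0.05. No symbol is filled at 24 h, Mmp3 in C57BL/6J lies at 2.73 at 72 h as labelled, and at 14 d 6 symbols of C57BL/6J and 4 of BALB/c are filled.

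Mmp8, neutrophil collagenase, was dim on most arrays and rose in C57BL/6J. Testing required an intensity above 225.7 on at least 2 arrays. Mmp8 exceeded it on 7 arrays, all after bleomycin except the b array of BALB/c saline 24 h. It was therefore tested only through bleomycin arrays, among them those on which the rise was seen. C57BL/6J arrays read 63.2 and 76.2 at 24 h after bleomycin, 650 and 415 at 72 h and 680 and 358 at 14 d. Its saline arrays read 72.2 and 133, 65.0 and 60.4, and 25.4 and 60.5. The bleomycin arrays of 72 h and 14 d lay above all other C57BL/6J arrays. The change at 14 d was 2.14 ± 0.59 (adjusted p = 0.03421), and 1.75 (adjusted p = 0.3014) without the a array of bleomycin 14 d, 1.95 (adjusted p = 0.1477) without the a array and 2.33 (adjusted p = 0.09748) without the b array of saline 14 d. At 72 h it was 1.99 ± 0.59 as labelled (adjusted p = 0.05218), 1.94 ± 0.54 without the 4 arrays in doubt (adjusted p = 0.04634) and 2.11 ± 0.59 with labels exchanged (adjusted p = 0.06853).

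In BALB/c, Mmp8 was raised on single arrays and not on their partners. The bleomycin arrays read 69.5 and 99.6 at 24 h, 40.3 and 340 at 72 h and 83.0 and 269 at 14 d, and the changes (-0.80, 0.75 and 0.81) did not pass the test. The highest BALB/c value, 602, was on the b array of saline 24 h, whose a array read 43.1. The strain difference in the effect at 14 d was 1.33 ± 0.83 (adjusted p = 0.3477).

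That BALB/c saline array was the one with the highest neutrophil marker level. The summed intensity of the neutrophil markers, of which 13 of 15 were on the array and 10 were tested, was 35830 there and 8945 on its partner, and 31920 and 9660 on the b and a arrays of C57BL/6J saline 24 h. The other saline arrays lay between 8215 and 10050 and all bleomycin arrays between 11280 and 20510. On the b array of C57BL/6J saline 24 h, Mmp8 read 133. C57BL/6J bleomycin arrays had sums of 17570 to 20510 at 24 h, with Mmp8 at 63.2 and 76.2. At 72 h their sums were 18270 to 20290, with Mmp8 at 650 and 415. At 14 d the a and b arrays had sums of 19200 and 12420, with Mmp8 at 680 and 358. On the a and b arrays of BALB/c after bleomycin, sums were 15610 and 17440 at 24 h, with Mmp8 at 69.5 and 99.6. They were 11280 and 17840 at 72 h, with Mmp8 at 40.3 and 340, and 14120 and 15910 at 14 d, with Mmp8 at 83.0 and 269. S100a8, a calcium-binding protein abundant in neutrophils, read 11470 on the b array of BALB/c saline 24 h and 1954 on its partner. On that b array Mmp8 (602), Mmp9 (650), Mmp3 (1496), Timp1 (8088) and Adam8 (705) were the highest of all BALB/c saline arrays. The bleomycin effects at 24 h against saline of the same time used these arrays as control, and the part of the neutrophil markers in the member values was not tested.

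**Figure D3:**
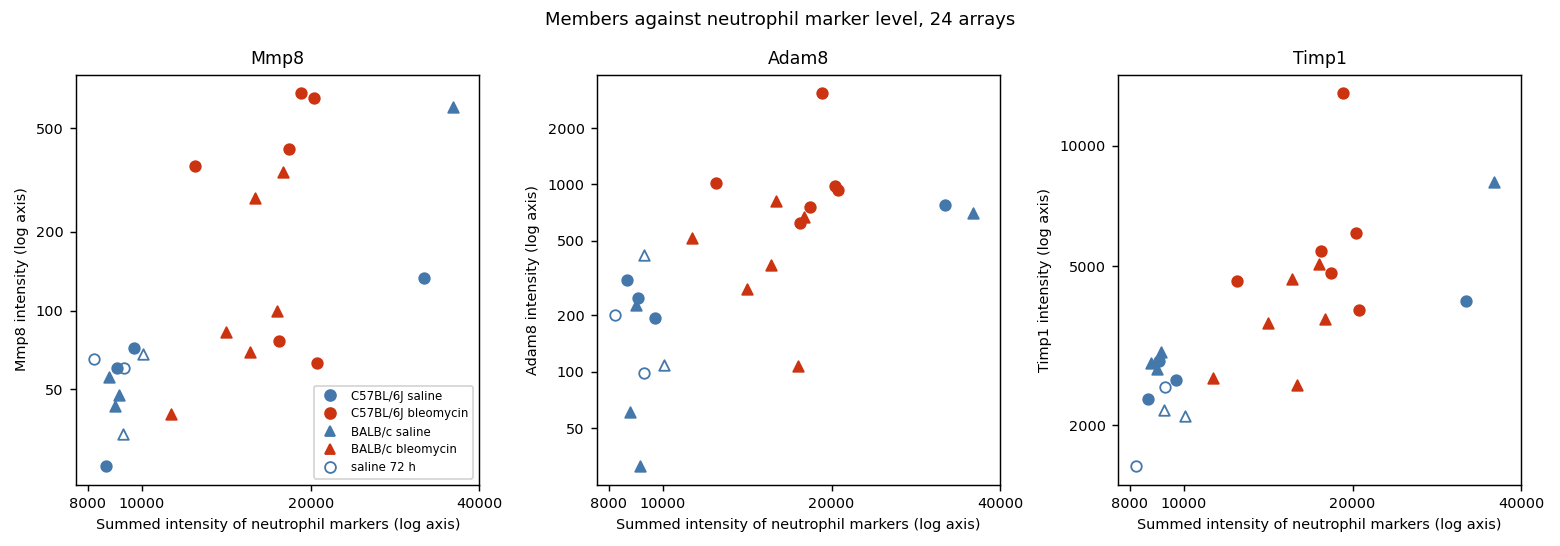
Intensity of Mmp8, Adam8 and Timp1 (vertical log axes) against the summed intensity of the neutrophil markers (horizontal log axis) on the 24 arrays. Circles are C57BL/6J, triangles BALB/c, blue saline, red bleomycin, and open symbols the saline 72 h arrays. The saline arrays sit near 8215 to 10050 on the horizontal axis, except for the b arrays of saline 24 h at 31920 and 35830.

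Mmp9, gelatinase B of neutrophils and macrophages, was measured by 1 tested probe set with intensities from 60.5 to 650, and was not called in any of these comparisons. Its changes at 14 d were -0.58 ± 0.53 in C57BL/6J and 0.36 ± 0.53 in BALB/c. The arrays of a group differed widely, as on the C57BL/6J saline 24 h pair at 75.5 and 530 and the BALB/c saline 24 h pair at 180 and 650. The b arrays of these pairs held the highest Mmp9 values and the highest neutrophil marker sums (31920 and 35830). The part of these markers in the Mmp9 values was not tested. Another Mmp9 probe set and both probe sets of Mmp2, gelatinase A, were too dim to test. Mmp2 read 24.7 to 246 with the brighter of them, where 1 array passed the intensity filter of 225.7, and 8.68 to 134 with the other. The second Mmp9 probe set read 14.2 to 108. The second Timp1 probe set (2.27 to 78.1) and 2 further ones of Timp2 (17.6 to 272 and 12.4 to 111) were also too dim to test.

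Mmp14, the membrane-anchored protease that activates pro-Mmp2, rose in C57BL/6J at 14 d. The bleomycin arrays read 4405 and 3843 and the saline arrays 1917 and 2259, and no other C57BL/6J array exceeded 3037. The change was 0.95 ± 0.21 (adjusted p = 0.01109), and 0.86 (adjusted p = 0.1318) without the a array of bleomycin 14 d or 0.84 (adjusted p = 0.08506) without the a array of saline 14 d. In BALB/c the arrays read 3895 and 2711 after bleomycin and 2718 and 2634 after saline, so the pairs overlapped, with a change of 0.27 ± 0.21 (adjusted p = 0.419) and a strain difference of 0.68 ± 0.30 (adjusted p = 0.1691). At 24 h the strains moved in opposite directions without passing the test, at -0.49 ± 0.21 in C57BL/6J and 0.49 ± 0.21 in BALB/c, a difference of -0.97 ± 0.30 (adjusted p = 0.3254). Among C57BL/6J bleomycin arrays alone, Mmp14 rose from 24 h to 14 d by 0.95 ± 0.21 (adjusted p = 0.009895), which missed the threshold without the a array of 14 d (adjusted p = 0.1192) or the a (0.05714) or b (0.07437) array of 24 h. Fibroblast markers stood at a summed intensity of 42890 to 60230 on the C57BL/6J bleomycin 14 d arrays and 30450 to 34940 on the saline arrays. In BALB/c these were 32550 to 36510 and 24410 to 27280, and their part in the Mmp14 result was not tested.

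Adam8, a protease of leukocytes that sheds cell surface proteins, rose in both strains at 14 d. C57BL/6J arrays read 3072 and 1020 after bleomycin and 311 and 246 after saline, and BALB/c arrays 275 and 820 against 31.5 and 61.3. The pairs did not overlap in either strain. The changes were 2.35 ± 0.62 (adjusted p = 0.02741) and 2.07 ± 0.62 (adjusted p = 0.0346), with a strain difference of 0.27 ± 0.87 (adjusted p = 0.8791). The C57BL/6J call was lost without the a array of bleomycin 14 d (1.59, adjusted p = 0.3339), or the a (2.47, adjusted p = 0.08996) or b (2.22, adjusted p = 0.1299) array of saline 14 d. The BALB/c call was lost without the b array of bleomycin 14 d (1.42, adjusted p = 0.3273), or the a (1.92, adjusted p = 0.1789) or b (2.23, adjusted p = 0.116) array of saline 14 d. The BALB/c fold rests on a low control: its saline arrays of 24 h read 228 and 705, above those of 14 d and reaching into the range of the bleomycin arrays of 14 d. At 72 h Adam8 read 979 and 762 in C57BL/6J and 520 and 667 in BALB/c after bleomycin, above the saline arrays of 72 h (98.5 to 421). The mean effect of both strains was 1.55 ± 0.43 (adjusted p = 0.06188).

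Timp1, the inducible inhibitor, was called at 14 d in C57BL/6J and not in BALB/c. C57BL/6J read 13520 and 4600 after bleomycin and 2330 and 2897 after saline. BALB/c read 3608 and 2523 after bleomycin and 3058 and 2856 after saline. Both C57BL/6J bleomycin arrays lay above their controls, while the BALB/c pairs overlapped. The change was 1.57 ± 0.44 in C57BL/6J (adjusted p = 0.03716) and 0.03 ± 0.44 in BALB/c (adjusted p = 0.9735). The difference between these effects was 1.54 ± 0.62 and missed the threshold (adjusted p = 0.1385), so the strains' effects were not shown to differ.

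Compared directly after bleomycin at 14 d, Timp1 was higher in C57BL/6J than in BALB/c by 1.36 ± 0.44 (adjusted p = 0.04476). In that comparison 2 of the 10 member probe sets were called, Timp1 and Timp2, both higher in C57BL/6J, where 15.7% of all probe sets were called. The Timp1 calls rested on single arrays. Without the a array of C57BL/6J bleomycin 14 d, at 13520, the bleomycin effect was 0.80 ± 0.45 (adjusted p = 0.4714) and the strain difference after bleomycin 0.59 ± 0.45 (adjusted p = 0.5345). Without the b array of BALB/c bleomycin 14 d that strain difference was 1.11 (adjusted p = 0.2292). The count of members called was 0 without either of these arrays, 1 without most of the others and 5 without the b array of C57BL/6J bleomycin 14 d. The C57BL/6J effect was also lost without the a array (1.42, adjusted p = 0.16) or the b array (1.72, adjusted p = 0.101) of saline 14 d, and on testing without the intensity filter (adjusted p = 0.0566).

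At earlier times Timp1 read 3891 and 5438 at 24 h and 6046 and 4796 at 72 h in C57BL/6J after bleomycin, and 4654 and 5063, then 2630 and 3694, in BALB/c. Saline arrays ranged from 1584 to 4093 in C57BL/6J as labelled and from 2116 to 8088 in BALB/c. The effect at 72 h in C57BL/6J was 1.40 ± 0.44 as labelled (adjusted p = 0.06918), 0.87 ± 0.40 without the 4 saline arrays (adjusted p = 0.214) and 1.29 ± 0.44 with labels exchanged (adjusted p = 0.1431). From 24 h to 14 d after bleomycin, Timp1 changed by 0.77 ± 0.44 in C57BL/6J and by -0.67 ± 0.44 in BALB/c. The difference between these changes was 1.44 ± 0.62 (adjusted p = 0.2736).

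Timp2, a constitutive inhibitor that also takes part in the activation of pro-Mmp2, was low at 72 h whatever the treatment. After bleomycin at 72 h it read 965 and 1010 in C57BL/6J and 924 and 995 in BALB/c, and after saline 1414 and 1411, and 1164 and 1203. Every other array read 1628 or more, except the b array of BALB/c bleomycin 14 d at 1119. Saline arrays of 72 h lay below those of 24 h and 14 d by -0.73 ± 0.12 in the mean of both strains (adjusted p = 0.003279), where 5.05% of all probe sets were called, and Timp2 was the only member called. Against saline of the same time, the bleomycin effect at 72 h was -0.48 ± 0.20 in C57BL/6J as labelled (adjusted p = 0.1651) and -0.28 ± 0.20 in BALB/c (adjusted p = 0.6784). Against the saline arrays of the other times it was -1.05 ± 0.18 (adjusted p = 0.003645) and -1.17 ± 0.18 (adjusted p = 0.002296), and those values include the difference between saline arrays. Time and any difference in handling of the 72 h arrays cannot be told apart.

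At 14 d Timp2 read 2534 and 2856 in C57BL/6J after bleomycin and 2109 and 2259 after saline, and in BALB/c 2094 and 1119 against 2408 and 2312. The C57BL/6J bleomycin arrays lay above and the BALB/c ones below their controls. The effects were 0.29 ± 0.20 (adjusted p = 0.4175) and -0.59 ± 0.20 (adjusted p = 0.05372), and their difference was 0.88 ± 0.28 (adjusted p = 0.05902). After bleomycin the level in C57BL/6J exceeded that in BALB/c by 0.77 ± 0.20 (adjusted p = 0.01478), and by 0.35 ± 0.16 (adjusted p = 0.2072) without the b array of BALB/c bleomycin 14 d. From 24 h to 14 d after bleomycin Timp2 rose by 0.65 ± 0.20 in C57BL/6J (adjusted p = 0.04791) and changed by -0.67 ± 0.20 in BALB/c (adjusted p = 0.0444). Both calls were near the threshold: the C57BL/6J one was missed under quantile normalization (0.63, adjusted p = 0.07172), with the halved offset (0.66, adjusted p = 0.05005) and without the filter (adjusted p = 0.06225), and the BALB/c one without the filter (adjusted p = 0.05711). The difference between these changes was 1.31 ± 0.28 (adjusted p = 0.0452), where 0.402% of all probe sets were called, and Timp2 was the only member. Without that b array the difference was 0.89 (adjusted p = 0.1273) and the BALB/c change -0.24 (adjusted p = 0.5648). The difference was close to the threshold and missed it without any 1 of 16 of the 24 arrays, at adjusted p up to 0.2138.

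Timp3, the inhibitor that is held in the matrix, was called in none of these comparisons. At 14 d BALB/c read 3478 and 2502 after bleomycin, the lowest BALB/c values, against 5712 and 5848 after saline, a change of -0.95 ± 0.37 (adjusted p = 0.09566). C57BL/6J read 5716 and 5049 against 7450 and 2827, with a change of 0.22 ± 0.37, and the strain difference was 1.17 ± 0.52 (adjusted p = 0.1765). The lung epithelium markers were also low on the BALB/c bleomycin 14 d arrays, at 3630 to 6908 summed, against 21290 to 23090 on their saline arrays. Of 6 tested epithelium markers, 3 fell there: Ager at -3.88, Scgb1a1 at -3.68 and Sftpb at -3.15. Their part in the Timp3 and Timp2 values was not tested.

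Timp1 was set against Mmp3, Mmp8 and Mmp12 over the 6 bleomycin arrays of each strain, which gave 6 relations. In C57BL/6J, Pearson's r was 0.171 with Mmp3, 0.602 with Mmp8 and 0.621 with Mmp12, and Spearman's rho 0.2, 0.829 and 0.086. In BALB/c r was -0.59, -0.187 and -0.601, and rho -0.2, 0.029 and -0.829. Exact permutation tests, two-sided, gave p from 0.1194 to 0.7222 for r and from 0.05833 to 1 for rho. After adjustment over the 6 relations these were 0.4083 to 0.7222 and 0.175 to 1, so none passed. All 3 values of r were above 0 in C57BL/6J and below 0 in BALB/c, but the difference between strains was not tested.

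With 1 array left out, r with Mmp8 in C57BL/6J lay between 0.464 and 0.687. In BALB/c r lay between -0.85 and -0.427 with Mmp12 and between -0.888 and -0.046 with Mmp3. These relations kept their sign. The others did not: r ranged from -0.015 to 0.347 with Mmp3 and from -0.327 to 0.858 with Mmp12 in C57BL/6J. With Mmp8 in BALB/c it ranged from -0.636 to 0.174. Without the 2 arrays farthest from the median of Timp1, r in C57BL/6J was 0.707 with Mmp3, 0.089 with Mmp8 and -0.536 with Mmp12, and in BALB/c 0.077, 0.254 and -0.238. The C57BL/6J relation with Mmp12 rested on the a array of bleomycin 14 d, which held the highest Timp1 (13520) and the highest Mmp12 (13440); without it r was -0.327. The 2 arrays of each time share time and group, so the 6 points are not independent of it. In BALB/c the order by time ran the other way for the 2 genes: Timp1 was highest at 24 h (4654 and 5063), and Mmp12 was highest at 14 d (5586 and 4423).

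**Figure D4:**
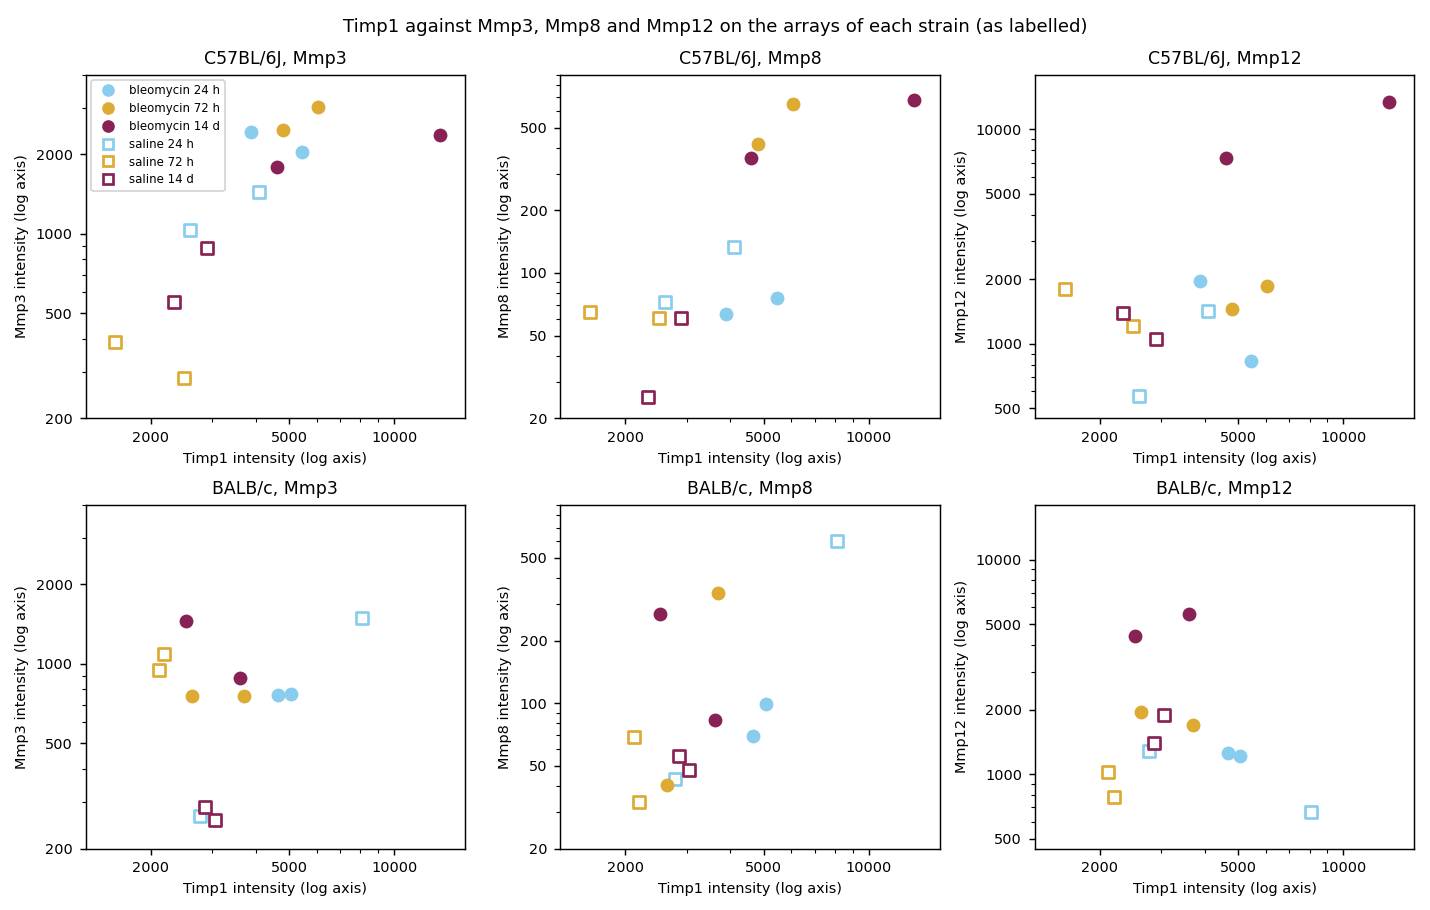
Intensity of Mmp3, Mmp8 and Mmp12 (the _r_at probe set; vertical log axes) against Timp1 (horizontal log axis) on the 12 arrays of C57BL/6J (top) and of BALB/c (bottom), coloured by time, with filled circles for bleomycin and open squares for saline as labelled. In C57BL/6J the array at the far right with Mmp12 at 13440 is the a array of bleomycin 14 d; in BALB/c the saline array at the far right, with Timp1 at 8088, is the b array of saline 24 h.

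The genes whose pattern was most like that of Timp1, by Pearson's r over the means of the 10 groups other than saline 72 h, were Plaur (0.946), Tnfrsf4 (0.919), Dok2 (0.908), Il1r2 (0.89) and Itgam (0.876). Plaur is the urokinase receptor and Il1r2 the decoy receptor of interleukin 1. The members ranked well below them: Mmp8 was number 58 (0.737), Adam8 number 133 (0.665), Mmp3 number 228 (0.61) and Mmp12 number 765 (0.403). Most like Mmp12 were Cd276 (0.966), 2610301B20Rik (0.95), Col5a1 (0.949), a fibrillar collagen, Fxyd5 (0.936) and Rab11fip5 (0.936), and Mmp14 stood at 0.773. These values describe group means that include the members' own arrays, and carry no p. Single arrays weigh on such means of 2 arrays. On the b and a arrays of BALB/c saline 24 h, Timp1 read 8088 and 2771 and Plaur 1795 and 863. On the same arrays Il1r2 read 1640 and 99.2, and Itgam 481 and 174.

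Other genes of the pathway at 14 d were read from lists. For the 9 member genes, with 1 probe set each, 5 rose in C57BL/6J (median 1.44), Mmp8 among them, and 3 in BALB/c (median 0.36). Over all 6464 genes, 202 rose and 298 fell in C57BL/6J (median -0.07), and 557 rose and 297 fell in BALB/c (median 0.06). The counts of 0 or 1 in the lists that follow are too small to set against these shares. Of 17 other matrix metalloproteases, 2 could be tested and neither was called in either strain. Of 8 tested of 22 other ADAM and ADAMTS proteases, Adam15 rose in C57BL/6J by 0.69 and none was called in BALB/c. Of 13 tested of 19 other inhibitors, activators and partners, 1 fell in each strain: Reck, a membrane inhibitor of several Mmps, by 1.44 in C57BL/6J, and Plau, urokinase, by 0.76 in BALB/c. At 72 h, in the mean of both strains, where 165 of all 6464 genes rose and 57 fell, Adam9 (0.61) rose, and so did Plaur (0.87) and Lcn2 (2.57), the neutrophil protein that binds Mmp9. Of 5 tested cytokines of 14 known to act on these genes, none was called in C57BL/6J at 14 d, and Tgfb1 rose by 1.27 in BALB/c. After saline, over 24 h and 14 d, Tgfb1 was higher in C57BL/6J than in BALB/c by 1.02 (limma adjusted p = 0.007961). Among C57BL/6J bleomycin arrays it rose from 24 h to 14 d by 1.205 (adjusted p = 0.02735). At 72 h in C57BL/6J, without the 4 saline arrays in doubt, its bleomycin effect was -1.126 (adjusted p = 0.02937). Tgfb1 is the cytokine that drives collagen synthesis and is known to raise Timp1.

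Markers of cell types at 14 d are given beside the same counts over all 6464 genes, 202 higher and 298 lower in C57BL/6J and 557 higher and 297 lower in BALB/c. Of 12 tested fibroblast markers, 4 rose in each strain: Fbln2 (1.95), Col1a2 (1.21), Dcn (0.51) and Col3a1 (0.87) in C57BL/6J, and Loxl1 (0.89), Thy1 (1.29), Col1a2 (0.72) and Lum (0.76) in BALB/c. Of 10 tested neutrophil markers, none was called in C57BL/6J and Ltf (1.70) rose in BALB/c. Of 9 tested heart muscle markers, 5 fell in C57BL/6J, with Myl7 at -1.36, Myh6 at -1.09, Tnni3 at -1.08 and Myl4 at -1.08, and Tnnc1 fell by 0.78 in BALB/c. Of 6 tested T and B cell markers, 3 fell in C57BL/6J (Cd79b at -1.25, Cd79a at -1.15 and Ms4a1 at -1.17) and none in BALB/c. No epithelium marker was called in C57BL/6J.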

How the data were processed

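The arrays were Affymetrix murine expression arrays with 1 lung RNA sample each, and groups came from the sample titles. The deposited table holds linear intensities, 1 for each of 12488 probe sets and 24 arrays. Trimmed of its lowest and highest 2%, each array averaged 799.9, from which a scaling by the authors to a common mean is inferred; the summary algorithm and other steps are not given in the sources used here. After 66 controls were removed, 12422 probe sets remained. Of these, the array annotation gave 10833 a single gene, 396 several and 1193 none, and 10817 of the single genes were found in RefSeq (GRCm38.p6).

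Log2 was taken of intensity plus 92, a value near the arrays' lower quartiles, and the 8710 probe sets above 225.7 (the 40th percentile) on at least 2 arrays were tested. A model with 1 mean per group was estimated by limma 3.58.1 under R 4.3.3 (12 residual degrees of freedom, moderated variances with an intensity trend, two-sided, Benjamini-Hochberg over all tested, called under 0.05). Its code was tested on simulated data. Intensities of single arrays are given; log2 changes carry the model's standard error. Correlations used log2 values and exact permutation tests (SciPy 1.17.1, Python 3.11.15), or permutation tests with 10 arrays or more.

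The members, gene lists, comparisons and tests were chosen with earlier results of these data known. All member probe sets are named; of each list, up to 4 called genes with the smallest p, from 1 probe set per gene (6464 genes); the 5 genes most like Timp1 and Mmp12; and H2-Ea. Alternatives were quantile normalization, a halved or tripled offset, no filter, the array letter as a replicate block, leaving out each array, other handling of the 72 h saline arrays, and other controls. Chosen after seeing the data were the mean of both strains at 72 h, saline 72 h against other saline arrays, the strain difference in the change from 24 h to 14 d, the second Mmp12 probe set in the correlations, and correlations of group means.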

Additional observations from a re-analysis of the deposited data

Results flagged for a closer look

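The bleomycin effect on Mmp3 at 72 h differed between strains by 3.11 on the log2 scale with the arrays as labelled (limma adjusted p = 0.006102). It was 0.77 (adjusted p = 0.5478) without the 4 saline arrays of 72 h and 0.35 (adjusted p = 0.9746) with their strain labels exchanged.

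The change of Timp2 from 24 h to 14 d after bleomycin differed between strains by 1.31 (adjusted p = 0.0452), a comparison that uses no saline array as a control. Without the b array of BALB/c bleomycin 14 d it was 0.89 (adjusted p = 0.1273). With 2 arrays a group, no search for outlying arrays within a group was made.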

How the results depend on the processing

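With 2 arrays a group and 12 residual degrees of freedom, single arrays weigh heavily, and no depth can be given for intensities. No member effect changed direction past the threshold. Of the values of single member probe sets under other settings, 1225 kept their side of the threshold, 18 passed it and 27 no longer did, and with 1 array left out these were 4135, 66 and 119. The counts of member probe sets called changed as follows. C57BL/6J against BALB/c after bleomycin at 14 d fell from 2 to 1 under quantile normalization, without the filter, with the replicate block and without the 4 saline arrays of 72 h. The same comparison at 72 h went from 0 to 1 with the tripled offset and with the replicate block, and that after saline from 0 to 1 under quantile normalization, the halved offset and the replicate block. The mean of both strains at 72 h went from 2 to 1 under quantile normalization, the tripled offset and no filter. The strain difference in the change from 24 h to 14 d went from 1 to 0 without the filter, with the replicate block and without the 4 arrays. At 72 h, BALB/c went from 0 to 1 and the interaction from 1 to 0 without the 4 arrays, and exchanging their labels gave 1 for C57BL/6J and 0 for the interaction. With saline 14 d as control, C57BL/6J at 24 h had 1. The cause was not tested. The labels do not say whether the array letter pairs samples across groups. Over 66 pairs of a arrays, deviations from group means correlated at -0.285 to 0.309, with 14 above 0.1. These values do not settle whether arrays of the same letter are linked. Pooled over saline and bleomycin arrays, which differ in level, some relations passed a permutation test that none passed within bleomycin arrays. Over 12 arrays of C57BL/6J, r of Timp1 was 0.797 with Mmp3 and 0.792 with Mmp8 (adjusted p = 0.00357 for both) and 0.629 with Mmp12 (adjusted p = 0.05205). In BALB/c these were 0.241, 0.618 and -0.237 (adjusted p from 0.05205 to 0.4576). Over 10 arrays, without saline 72 h, r was 0.744, 0.795 and 0.721 in C57BL/6J (adjusted p from 0.01242 to 0.04704). In BALB/c it was 0.473, 0.575 and -0.584 (adjusted p from 0.09367 to 0.1659). Over the means of each strain's 6 groups, r was 0.894, 0.823 and 0.71 in C57BL/6J and -0.13, 0.517 and -0.165 in BALB/c. None of these passed the permutation test after adjustment. Within bleomycin arrays, the _s_at probe set of Mmp12 gave r of 0.75 in C57BL/6J and -0.497 in BALB/c (adjusted p = 0.4292). Under quantile normalization, rho in BALB/c was -0.771 with Mmp3, -0.143 with Mmp8 and -0.657 with Mmp12, and none passed.

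With 1 array left out, the member counts ranged as follows: C57BL/6J effect at 72 h 1 to 5 and at 14 d 2 to 7, BALB/c at 14 d 1 to 5, interaction at 14 d 0 to 1, strain difference after bleomycin 0 to 1 at 24 h and 72 h and 0 to 5 at 14 d, after saline 0 to 1, change from 24 h to 14 d 2 to 5 in C57BL/6J and 1 to 3 in BALB/c, its strain difference 0 to 3, and mean of both strains at 72 h 0 to 4. Other counts with 1 array left out stayed at 0 (effects at 24 h in both strains, their interaction, and BALB/c at 72 h) or at 1 (the interaction at 72 h, and saline 72 h against other saline).

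Counts over all probe sets moved too. Exchanged labels at 72 h gave 226 in place of 576 in C57BL/6J, 7 in place of 115 in BALB/c and 0 in place of 268 for the interaction, and leaving out the 4 arrays gave 526 in BALB/c and 79 for the interaction. At 24 h, C57BL/6J went from 194 to 430 with saline 14 d as control and to 121 under quantile normalization. BALB/c at 24 h went from 19 to 33 under quantile normalization, 12 without the filter and 10 without the 4 arrays. The interaction at 24 h went from 2 to 11 with the tripled offset or saline 14 d as control and to 5 without the 4 arrays. The strain difference in the change from 24 h to 14 d went from 35 to 22 without them. Leaving out 1 array moved most totals by over 1.5 times. The effect in C57BL/6J had 38 to 269 (194) at 24 h, 222 to 686 (576) at 72 h and 87 to 1249 (647) at 14 d, and in BALB/c 1 to 52 (19), 52 to 133 (115) and 198 to 1444 (1158). The interaction had 0 to 27 (2), 154 to 316 (268) and 136 to 1014 (647). C57BL/6J against BALB/c had 62 to 189 (163), 54 to 171 (143) and 177 to 2010 (1364) after bleomycin and 492 to 1128 (967) after saline. The change from 24 h to 14 d had 160 to 1529 (755) in C57BL/6J, 58 to 1267 (667) in BALB/c and 5 to 548 (35) for the strain difference. The mean of both strains at 72 h had 112 to 372 (280), and saline 72 h against other saline 102 to 578 (440).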
